A study of Sus scrofa with 63 samples.

Results

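The spread of jejunal gene expression between fetuses of the same genotype was compared between day 110 and day 90 of gestation in pigs. The comparison used all 63 male fetuses of the series, in 8 groups of genotype and day. It covered 32892 of 60305 probes, those that the scanner software marked as well above background in every group, on 75% of its arrays or more. Spread was the standard deviation (SD) between the fetuses of a group on the log2 scale. The change with age is given as log2 of the SD at day 110 over the SD at day 90, where 0 means no change.

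RNA came from a middle segment of the jejunum, with 1 fetus per one-colour Agilent array. Purebred LW (Large White) fetuses numbered 9 at each age, and purebred MS (Meishan) fetuses numbered 6 at day 90 and 7 at day 110. LWMS fetuses, with an LW sire and an MS sow, numbered 9 at each age, and MSLW fetuses, with an MS sire and an LW sow, numbered 8 and 6. No group received a treatment. Sows were inseminated with mixed semen, so MS and LWMS fetuses shared sows, as did LW and MSLW fetuses. The labels do not name the sow of a fetus, so the spread within a group holds differences between litters as well as between litter mates, and these cannot be told apart.

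Late gestation is the period in which the pig small intestine prepares for the first meals. Fetal enterocytes, the absorptive cells of the villus, take up macromolecules by endocytosis, and are replaced around birth by cells with digestive enzymes and nutrient transporters of the adult type. The surge of fetal cortisol towards term is a known driver of this change. The SD between fetuses of 1 chronological age is the measurement described here. Whether it reflects different points of maturation was not tested.

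The arrays were placed on 8 slides, and each slide held fetuses of both ages and at most 2 arrays of a group, so no spread could be computed within a slide. A fit with the slide as a term is given where it moves a result. Between 51.2 and 87.6% of the probes of an array were well above background. Array 632 (MS, day 110) stood apart from its group, as did array 484 (LW, day 90). Counts are given with and without them. As a check of the labelled tissue, LCT, the lactase of small intestinal villi, lay at 1.06 to 4.3 at day 90 and at -1.3 to 6.44 at day 110, in log2 units against the 75th percentile of its array. Some fetuses at day 110 also held high levels of stomach genes. Whether the sampled segment was the same stretch of gut in every fetus was not tested, and this limits what the spread at day 110 measures. In whole tissue, fewer cells of a type and less RNA per cell cannot be told apart.

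Gene expression was more variable between fetuses at day 110. The spread, averaged over the 4 genotypes, was higher at day 110 for 4112 probes (12.5% of those tested) and lower for 425 (1.29%), by limma on absolute deviations with adjusted p under 0.05. These probes named 1641 and 171 genes. The median SD over all probes was 0.35 at day 90 and 0.396 at day 110, and 62.9% of probes had the larger pooled SD at day 110. Of the 4112 probes, 2859 had a larger SD at day 110 in all 4 genotypes and 1203 in 3 of them. These probes were called by the average over the same 4 genotypes, so such agreement is largely built into the choice. Over all probes tested, the SD was larger at day 110 for 52.4% in LW, 58.3% in MS, 54% in LWMS and 70.5% in MSLW. Without array 632 the counts were 3328 higher and 640 lower, and without both arrays they were 4103 and 441. With the slide as a term they were 2549 and 850.

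**Figure D1:**
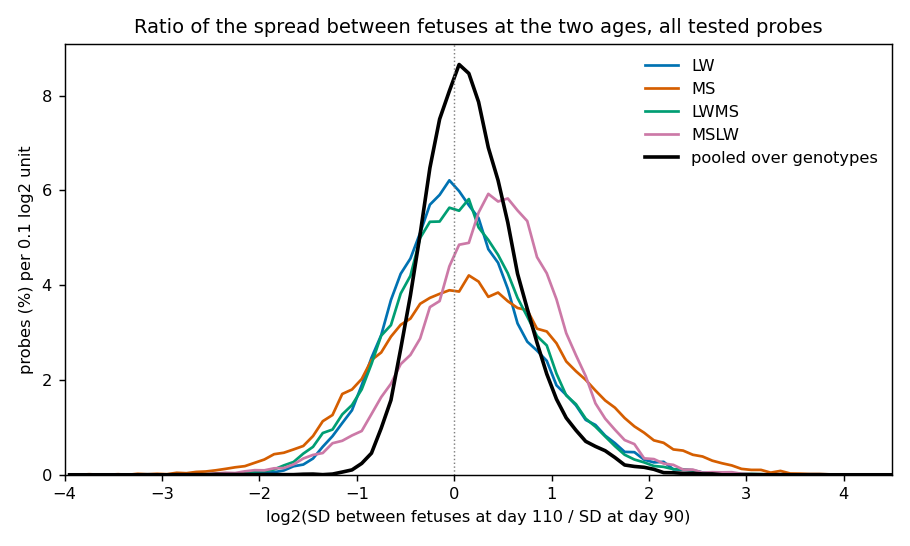
Share of the 32892 tested probes (vertical axis, percent per 0.1 log2 unit) by the log2 ratio of the SD between fetuses at day 110 to that at day 90 (horizontal axis), in each genotype (coloured lines) and pooled over genotypes (black). The pooled distribution has its median at 0.15, with the medians of LW at 0.04, LWMS at 0.07, MS at 0.21 and MSLW at 0.39.

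Each fetus was also given 1 value, the root mean square distance of its probes from the mean of its group in log2 units. Over all genotypes this distance averaged 0.412 ± 0.109 (SD, n = 32) in the younger fetuses and 0.4995 ± 0.137 (SD, n = 31) in the older, a difference of 0.0868 (two-sided permutation test within genotypes, p = 0.00549). In LW it ranged from 0.267 to 0.816 at day 90 and from 0.401 to 0.624 at day 110, and in MS from 0.373 to 0.607 and from 0.355 to 1.09. In LWMS it ranged from 0.338 to 0.486 and from 0.34 to 0.606, and in MSLW from 0.291 to 0.562 and from 0.375 to 0.587. The ranges of the ages overlapped in every genotype. The differences of the means were 0.09 in LW, 0.117 in MS, 0.0421 in LWMS and 0.0976 in MSLW, with adjusted p of 0.303, 0.306, 0.303 and 0.292 by exact permutation tests. Array 632 held the value of 1.09 and array 484 that of 0.816. Without array 632 the difference was 0.0582 over all genotypes (permutation p = 0.0263) and 0.00319 in MS, and without both arrays it was 0.074 over all (permutation p = 0.00296). Without array 484 the difference in LW was 0.153 (exact permutation test, adjusted p = 0.00823).

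**Figure D2:**
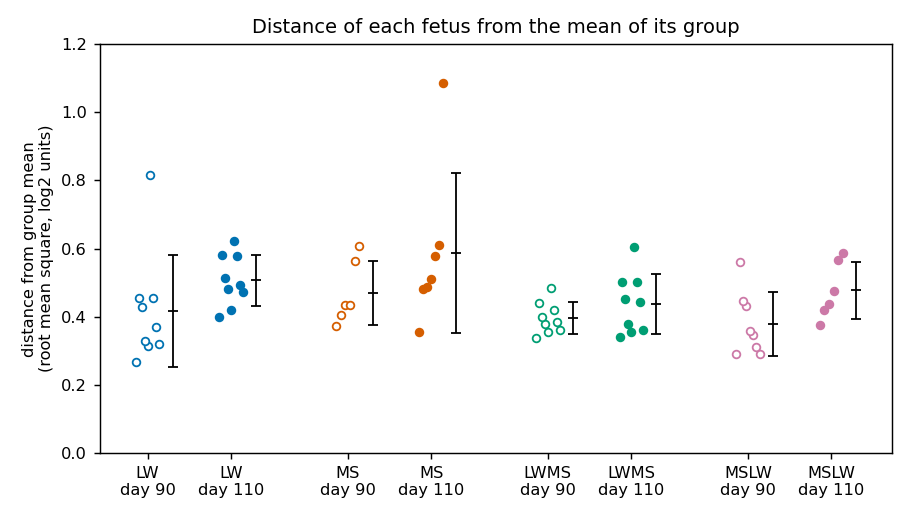
Distance of each fetus from the mean of its group (vertical axis, root mean square over probes in log2 units) for the 8 groups, with open points at day 90, filled points at day 110 and bars for the mean ± SD. The MS fetus at 1.09 and the LW fetus at 0.816 stand apart, and the ages overlap in each genotype.

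The 14 probes described first, for 13 genes, had SDs of 0.171 to 0.596 at day 90 and of 0.819 to 2.75 at day 110. CA9, a cell-surface carbonic anhydrase, lay between -0.74 and -0.09 (median -0.37) in the 32 fetuses at day 90 and between -0.83 and 5.5 (median 0.59) in the 31 at day 110, on the same log2 scale. Its median was higher than at day 90 in each genotype, yet the lowest fetuses at day 110 remained at the level of day 90. The pooled SD of CA9 rose from 0.171 to 2.24, which is 13.1-fold (95% interval 8.97 to 19.2, limma adjusted p = 3.91e-12), and all 4 probes of the gene were called. At day 110, 23 of 31 fetuses lay above the highest day 90 value of their own genotype. Over all probes tested, the median number of day 110 fetuses outside that range, above or under, was 10 (0 to 31). Such counts for other genes are to be read against it. With the slide as a term the log2 ratio of CA9 was 1.82 in place of 3.71.

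SLC8B1, the mitochondrial sodium and calcium exchanger, lay between -2.35 and -0.69 at day 90 and between -1.98 and 3.3 at day 110. The probe that the array names SLC24A6, a former name of the same gene, lay between -0.05 and 1.32 and between 0.13 and 5.49. In LW the median of SLC8B1 was -1.76 at day 90 and -1.46 at day 110, with a highest value of 2.71, so that most LW fetuses stayed in the day 90 range of the genotype. In MS, LWMS and MSLW the median at day 110 was 1.87, 2.15 and 1.58, and every MSLW fetus (lowest 0.59) was above all day 90 values. The SD of the SLC8B1 probe rose 5.53-fold and that of the SLC24A6 probe 6.3-fold (limma adjusted p = 6.76e-10 and 7.99e-11). Of the 3 probes named SLC8B1, 2 were called, and the other had SDs of 0.728 and 0.543.

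MUC1, a membrane mucin, lay between -1.37 and 0.14 at day 90 and between -1.64 and 4.91 at day 110, and its SD rose 5.05-fold (limma adjusted p = 1.04e-09). ABO, the glycosyltransferase of the AB blood group antigens, had a highest value of -0.9 at day 90. At day 110 it reached 2 in MS, 1.65 in LWMS and 1.58 in MSLW, and 0.13 in LW, with the lowest fetuses still between -2.38 and -1.59. FUT1, the fucosyltransferase that makes the H antigen on which ABO acts, lay between -0.28 and 0.85 at day 90 and between -0.73 and 2.45 at day 110. Their SD rose 3.41-fold and 3.55-fold (limma adjusted p = 2.29e-08 and 3.47e-08).

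FTCD, an enzyme of histidine breakdown, and the metalloproteinases MMP25 and ADAM8 fell far under their day 90 levels in part of the fetuses. FTCD lay between 1.41 and 3.8 at day 90 and between -4.96 and 3.93 at day 110, with 15 of 31 fetuses under the day 90 range of their genotype. The other tested probe of FTCD, dim at a mean of -3.77, had SDs of 0.435 and 0.41. MMP25 lay between 0.09 and 1.84 and then between -4.32 and 2.73, with 16 fetuses above and 9 under the earlier range, and its mean level did not pass the test (log2 change -0.18, limma adjusted p = 0.707). ADAM8 lay between -0.32 and 2.31 and then between -3.62 and 2.53. Their SD rose 4.88-fold, 5.53-fold and 3.8-fold.

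TINAG, a basement membrane protein, and RAB11FIP5, which acts in the recycling of endosomes, lay under the day 90 range of their genotype in 16 and 24 of 31 fetuses at day 110. TINAG lay between -0.92 and 0.45 at day 90 and between -4.66 and 0.76 at day 110, and RAB11FIP5 between 2.5 and 4.28 and between -0.76 and 3.56. ABHD4, a lipid hydrolase, and PALMD, the cytosolic protein palmdelphin, spread in both directions. PALMD had 16 fetuses above and 10 under the day 90 range of their genotype, and ABHD4 had 18 and 4. The SD of these 4 genes rose 3.82-fold to 5.6-fold. The call of each of these 14 probes held in all settings tried, except for ABO when deviations were taken from group medians (limma adjusted p = 0.0568). The size did not: with the slide as a term the log2 ratio was 1.49 for FTCD, 1.58 for MUC1, 1.73 for SLC8B1, 1.7 for SLC24A6, 1.81 for MMP25, 1.74 for PALMD, 1.65 for TINAG, 1.13 for ADAM8 and 1.3 for RAB11FIP5, each over 1.5 times smaller as a fold. ABHD4 was at 1.21 with median centring.

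**Figure D3:**
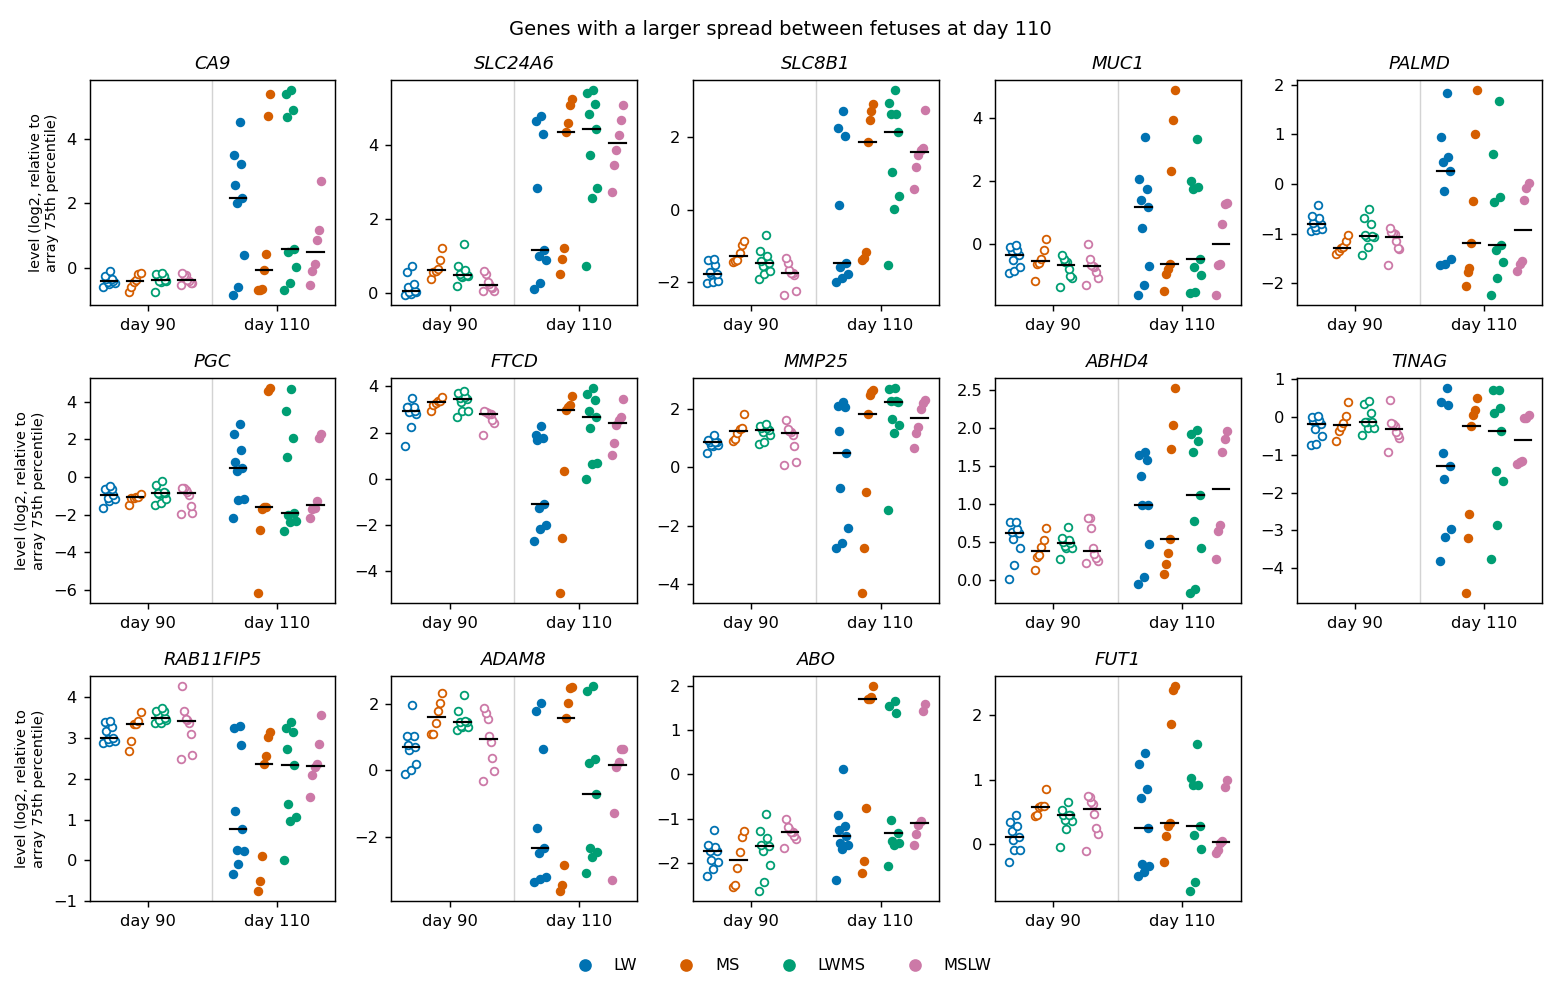
Level of the 13 genes, by 14 probes (log2 units, 0 at the 75th percentile of an array) in each fetus at day 90 (open points) and day 110 (filled points), coloured by genotype, with a bar at each group median. Each panel has a wider range at day 110 than at day 90, CA9 from -0.83 to 5.5 and FTCD from -4.96 to 3.93.

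PGC was also among the 13 genes, and it encodes the stomach protease zymogen progastricsin. Other stomach genes were therefore listed after these values were seen, so their counts are a description. Of 19 stomach and pylorus genes, 16 had a probe and 7 could be tested. The spread rose in 4, namely TFF2, GAST, PGC and GIF, and did not pass the test in SOX2, ATP4B and PGA5. The median log2 ratio of the 7 was 1.34, against 0.17 over the 9250 genes tested, each by its brightest probe.

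TFF2, a trefoil peptide secreted by gastric mucous cells, had the highest loading of all named probes on the first component at day 110. It lay between -3.09 and 2.42 (median -2.01) at day 90. At day 110 it ranged from -1.57 to 9.3 in LW (median 7.03), from -1.75 to 9.35 in MS (median -0.81), from -1.87 to 9.46 in LWMS (median -0.76) and from -0.92 to 7.35 in MSLW (median 1.8). In LW most fetuses lay at the high end and in MS and LWMS most lay at the low end. The SD was 1.34 at day 90 and 4.8 at day 110 (limma adjusted p = 0.000145).

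GAST, the hormone gastrin, lay between -3.2 and -0.37 at day 90 and between -4.88 and 6.49 at day 110. GIF, the intrinsic factor that binds vitamin B12, lay between -3.33 and 2.46 and between -3.26 and 7.79. PGC, by its brightest probe, lay between -0.6 and 1.18 and between -4.68 and 6. Of 31 fetuses at day 110, those above the day 90 range of their genotype numbered 20 for TFF2, 17 for GAST, 22 for GIF and 14 for PGC. The pooled SD rose from 0.667 to 3.08 for GAST, from 1.29 to 3.26 for GIF and from 0.444 to 2.72 for PGC (limma adjusted p = 4.56e-07, 0.000892 and 1.39e-08).

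The summed level of the 16 stomach markers was 3.37 to 4.73 over the groups at day 90. At day 110 it ran from 3.62 to 9.84 in LW, 3.2 to 10 in MS, 3.57 to 9.96 in LWMS and 3.54 to 7.82 in MSLW, with medians of 7.45, 3.74, 3.97 and 4.17. GKN1 and GKN2, secreted by the gastric surface epithelium, were well above background on 9 and 7 of 31 arrays at day 110, and on 1 and 4 of 32 at day 90. CLDN18 and VSIG1, of gastric junctions, were so on 14 arrays each at day 110, and TFF1 on 19, against 5, 7 and 9 at day 90. Other markers of the list changed little or fell. ATP4A was so on 24 arrays at day 110 and 27 at day 90, and ANXA10 on 26 and 29. BARX1 was so on 8 and 7, and CHIA on 11 and 8. ATP4B, a subunit of the acid pump of parietal cells, was well above background on all arrays and was no higher than -1.43 at day 110, against -0.22 at day 90. On the first principal component at day 110, TFF2, GIF, GAST and MUC1 loaded opposite to MEP1A, APOA4, FABP2, ACE, AQP10, FTCD, ADAM8 and MMP25. The stomach markers among them thus moved against the absorptive genes, and against genes that fell as well. Without array 632, PGC and CA9 also loaded on the side of TFF2, at 0.0393 and 0.0326 against 0.0752 for TFF2. The part of the stomach markers in the rise of CA9 or in the other results was not tested.

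**Figure D4:**
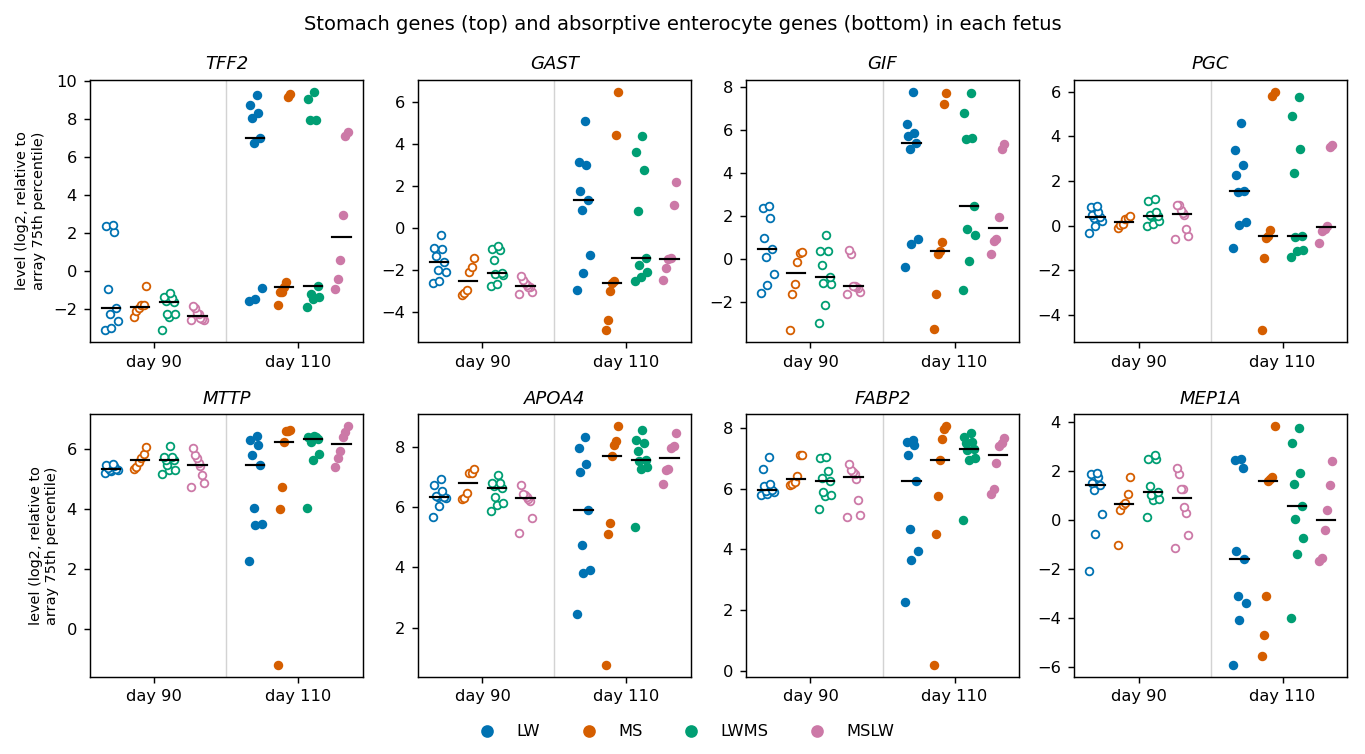
Level of 4 stomach genes (top) and 4 genes of absorptive enterocytes (bottom) in each fetus, by the brightest probe (log2 units, 0 at the 75th percentile of an array), with open points at day 90, filled points at day 110, colours for genotype and bars at group medians. TFF2 ran from -1.87 to 9.46 at day 110, and MTTP from -1.21 to 6.76 after 4.72 to 6.09 at day 90.

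Genes of nutrient absorption also became more variable in the average over genotypes. Of 9250 genes tested by their brightest probe, 14.3% were called higher and 1.28% lower in spread. In lipid absorption, 12 of 16 genes rose in spread and none fell, with a median log2 ratio of 1.25. In peptide and amino acid transport, 8 of 11 rose (median 1.21), in brush-border digestion 7 of 12 (median 1.01) and in fetal enterocyte endocytosis 6 of 12 (median 0.86), with none lower. These are shares of 75, 72.7, 58.3 and 50%, each above that of all genes. Without array 632 the counts were 8, 7, 6 and 6, and the medians 0.94, 0.9, 0.78 and 0.80. Within genotypes nearly all calls were in the purebreds. In LW, MS, LWMS and MSLW in turn, 9, 8, 0 and 0 genes of lipid absorption were called higher. For peptide transport they numbered 4, 7, 1 and 0, and for the brush border 5, 7, 0 and 0. For endocytosis they numbered 6, 6, 0 and 0. Of all probes, 3.53, 9.01, 0.876 and 0.389% were called higher. The endocytosis median was 0.02 in MSLW, where that of all genes was 0.44.

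MTTP, the transfer protein that loads lipid onto apolipoprotein B, lay between 4.72 and 6.09 at day 90. At day 110 it lay between 2.25 and 6.43 in LW, -1.21 and 6.63 in MS, 4.01 and 6.45 in LWMS and 5.4 and 6.76 in MSLW. The lowest fetuses were under the day 90 range in 3 genotypes, and the MSLW fetuses were not. The SD rose from 0.306 to 1.65 (limma adjusted p = 0.000513).

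APOA4 and APOB, proteins of the chylomicron, spread in the same range of sizes. APOA4 lay between 5.13 and 7.25 at day 90 and between 0.78 and 8.67 at day 110, where 22 fetuses were above and 8 under the day 90 range of their genotype. APOB lay between 5.57 and 7.4 and then between 0.3 and 6.85, where 2 were above and 9 under. Together these are near the median of 10 over all probes. FABP2, the intestinal fatty acid binding protein, lay between 5.05 and 7.12 and then between 0.2 and 8.05. The triglyceride synthases DGAT1 and DGAT2 and the lipid droplet proteins CIDEB and CIDEC had log2 ratios of 1.47, 1.45, 1.72 and 1.46. APOC3, FABP1, SAR1B and SCARB1 completed the 12, with log2 ratios of 0.81 to 1.02.

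Transporters with a higher spread included carriers of peptides and of several classes of amino acid. SLC15A1, the peptide transporter of the brush border, lay between 1.17 and 2.69 at day 90 and between -2.18 and 4.13 at day 110. SLC7A9, the light chain of the cystine transporter, lay between 1.56 and 3.41 and between -3.04 and 4.57. SLC1A5, a glutamine carrier, had 10 fetuses above and 13 under the day 90 range of their genotype, and the smallest adjusted p of the list (7.92e-08), with an SD of 0.194 at day 90 and 0.803 at day 110. SLC3A1, SLC3A2, SLC7A7, SLC6A19 and SLC16A10 were the others.

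At the brush border, the peptidases MEP1A, MEP1B, ENPEP, DPP4 and ACE, the glutamyl transferase GGT1 and the glucosidase MGAM rose in spread. MEP1A, a subunit of meprin, lay between -2.1 and 2.65 at day 90 and between -5.92 and 3.81 at day 110, and 8 fetuses lay above and 13 under the range of their genotype. ENPEP, aminopeptidase A, lay between 2.48 and 4.15 and between -0.57 and 5.07. DPP4, a dipeptidyl peptidase, lay above the day 90 range of the genotype in 30 of 31 fetuses, and its SD rose from 0.211 to 0.618 (limma adjusted p = 8.24e-05). LCT, lactase, did not pass the test, with SDs of 0.5 and 1.35.

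Of the 12 tested genes of fetal enterocyte endocytosis, 10 had the larger pooled SD at day 110, and the 6 called are described here. AMN, which anchors the receptor cubilin, its adaptor DAB2 and the scaffold PDZK1 had log2 ratios of 1.71, 1.66 and 1.37. The cathepsins CTSH, CTSZ and CTSB had log2 ratios of 1.6, 1.57 and 1.22. CTSH lay between 2.8 and 4.57 at day 90 and between 0.58 and 5.66 at day 110, with 14 fetuses above and 10 under the range of their genotype.

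Other metabolic lists held fewer called genes. In gluconeogenesis, 4 of 10 genes rose in spread, namely PCK1, PCK2, GOT1 and FBP1, with a list median of 0.82. PCK2, the mitochondrial form of phosphoenolpyruvate carboxykinase, lay between 3.24 and 4.37 at day 90 and between 1.72 and 5.38 at day 110, and the SD was 0.183 and 0.941 (limma adjusted p = 1.08e-06). In hexose handling, the glucose transporters SLC5A1 and SLC2A2 and the fructokinase KHK were the 3 called of 8 (list median 0.84). In fatty acid oxidation, CPT1A, ACADL, ACADM, SLC25A20 and ANGPTL4 were the 5 of 18 (median 0.43). Cholesterol synthesis had 1 of 13, the regulator SREBF2 (median 0.55), with 4 in the authors' values and with quantile normalization and 0 without array 632, glycolysis 2 of 13 (median 0.33), and oxidative phosphorylation 1 of 26 (median -0.09, and 0.14 with median centring).

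The xenobiotic list had 7 of 16 genes higher (median 0.77), among them the efflux pumps ABCB1, ABCC2 and ABCG2, the nuclear receptors NR1I2 and NR1I3, the epoxide hydrolase EPHX1 and the cytochrome CYP3A29. With the slide as a term 4 were called. In ion and water transport, 7 of 18 rose (median 0.84), and 4 with quantile normalization. The aquaporins AQP10, AQP3 and AQP8 had log2 ratios of 1.79, 1.45 and 1.51, and SLC26A6, SLC9A2 and KCNS3 had 0.84 to 0.95. Without array 632 the median of the ion and water list was 0.37. Among the 3 bile acid genes tested, 1 rose, the bile acid receptor NR1H4, with an SD of 0.267 and 0.989.

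Among epithelial lineages, the goblet and mucin list had 3 of 8 genes higher (median 0.65), which were MUC1, TFF2 and SPDEF, the last a transcription factor of secretory cells. The hormone list had 3 of 13 (median 0.49), namely GAST, SST, which encodes somatostatin, and GCG, which encodes glucagon and GLP-1. TFF2 and GAST are counted in the stomach list as well. The crypt list had 4 of 9 (median 0.62), the surface receptors EPHB2, EPHB3 and CD44 and the Wnt inhibitor ZNRF3. The cell cycle list had 2 of 18 (median 0.35), CCNB2 and MCM3. In none of these lists was a gene lower in spread.

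Genes that respond to hormones and stress moved in both directions. Of 14 glucocorticoid response genes, FKBP5, SGK1 and KLF15 rose in spread, with log2 ratios of 1.19, 1.23 and 1.12, and CRISPLD2 fell by 0.99 on the log2 scale. The immediate early list had 5 of 15 genes higher, EGR1, NR4A2, GADD45A, CYR61 and KLF2, and BTG2 lower. Heat shock proteins had 1 higher and 1 lower of 15, HSP70.2 and HSP90AB1, but 5 higher and 0 lower in the authors' values and 4 and 0 with quantile normalization, and the list median of 0.34 was -0.05 without array 632. The hypoxia list had 2 of 14, CA9 and P4HA2, with a list median of 0.18, near the 0.17 of all genes.

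Immune lists had few called genes. Interferon-stimulated genes had a median log2 ratio of 0.63 with 20 of 23 genes at a larger SD at day 110, yet 1 was called, OAS2, an antiviral sensor that lay between -0.01 and 3.26 at day 90 and between -0.22 and 4.63 at day 110. In LW alone 9 of the 23 were called higher, where 3.53% of all probes were. MHC and antigen presentation had 0 called of 16 by limma (median -0.09), with 2 higher after quantile normalization, 1 higher in the authors' values and 1 lower with the slide as a term, and macrophage genes had 0 of 13 (median -0.02). Chemokines and inflammation had 3 of 22 (median 0.13), CXCL13, S100A8 and S100A12, and lymphocyte genes had 1 of 11 (median 0.11), IGJ. Mucosal defence had 2 of 8, DMBT1 and NOS2 (median 0.66). Complement and plasma proteins had 4 of 19, AMBP, AFP, RBP4 and CFD (median 0.52, and 0.14 without array 632).

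Shares near the 14.3% of all genes, such as those of the matrix, cell cycle, glycolysis and inflammation lists, set a list apart in no way. Outside the epithelium, the share of markers higher in spread was 66.7% for adipocytes, 37.5% for enteric neurons and glia and 33.3% for pancreas, each on few genes. For smooth muscle, endothelial, erythroid and skeletal muscle markers it was 0 to 16.7%. Smooth muscle had 1 of 11, CNN1 (median 0.42), endothelium 1 of 11, TIE1 (median 0.17), and erythroid markers 1 of 6, HBB (median 0.10). Extracellular matrix had 4 of 25, LAMC1, SPARC, TIMP3 and LUM (median 0.22). Enteric neurons and glia had 3 of 8, ELAVL4, UCHL1 and RET (median 0.44). Adipocyte markers had 4 of 6 (median 0.90), 2 of which, PCK1 and CIDEC, are also enterocyte genes, with LPL and LIPE the others. Of the pancreas markers, AMY2 was called among 3 (median 0.89), and skeletal muscle had TNNC2 lower among 6 (median -0.12). Only 1 of the 6 tested probes of TNNC2 had the smaller SD at day 110. Epithelial markers had 2 of 10, KRT19 and CLDN7 (median 0.51). The proximal gut list, chosen after the stomach genes were seen, had 2 of 6, the iron transporter SLC11A2 and the folate transporter SLC46A1, with a median of 0.47 that turned to -0.06 without array 632. For each list with 1 or 2 called genes the number called changed in at least 1 setting, as for smooth muscle with 4 in the authors' values and interferon-stimulated genes with 7 by an F test of variances.

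The summed markers of neighbouring tissue overlapped in range between the ages, but those of pancreas and fat were more spread at day 110 in most genotypes. Smooth muscle markers summed to 9.18 to 10.02 at day 90 and 8.79 to 9.93 at day 110, and skeletal muscle markers to 6.21 to 7.21 and 5.69 to 6.96. Pancreas markers summed to 2.61 to 4.32 and 1.36 to 5.23, over 10 markers. The SD of this sum was 0.38 at day 90 and 0.81 at day 110 in LW, 0.26 and 1.1 in MS, 0.32 and 0.84 in LWMS, and 0.61 and 0.54 in MSLW. For the summed adipocyte markers it was 0.23 and 0.8 in LW, 0.24 and 0.58 in MS, 0.26 and 0.4 in LWMS, and 0.33 and 0.42 in MSLW. The SD of the smooth and skeletal muscle sums rose in some genotypes and fell in others. PNLIP and PRSS2 were well above background on 4 arrays each at day 90 and on 3 and 1 at day 110, while INS, which encodes insulin, was so on 11 and 26, CPA1 on 12 and 16 and CELA2A on 22 and 26. INS reached 2.34 at day 110, against -3.35 at day 90. The part of these cells in the results was not tested.

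**Figure D5:**
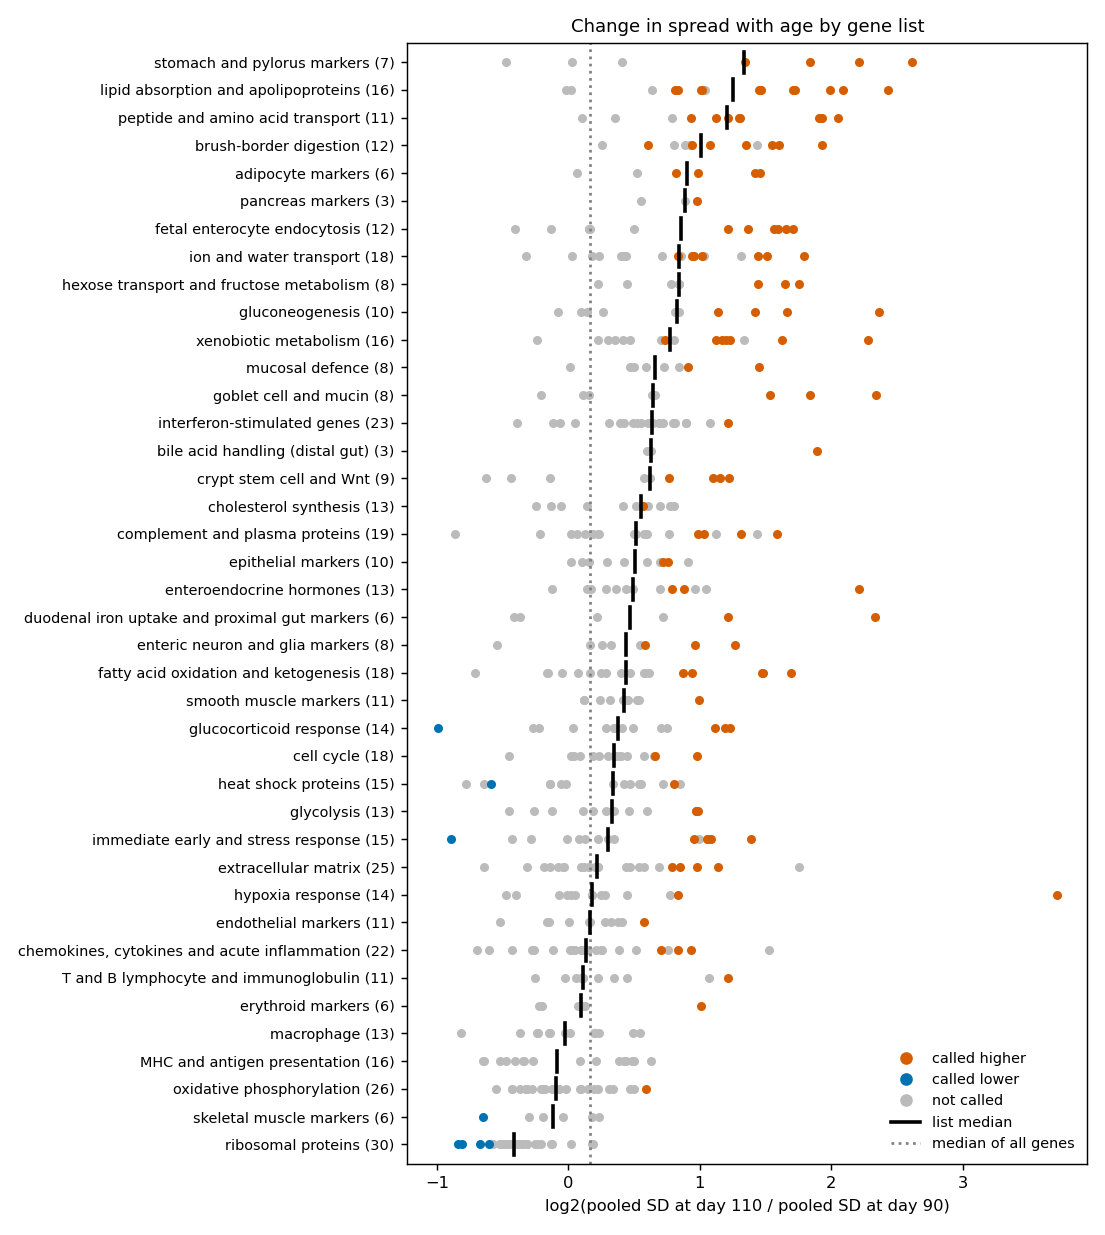
Change in spread with age (horizontal axis, log2 of the pooled SD at day 110 over that at day 90) of the tested genes of 40 lists, by the brightest probe, with the number tested in brackets, the list median as a black bar and the median of all 9250 genes as a dotted line at 0.17. Stomach, lipid, peptide and brush-border lists lie at the top with medians of 1.34, 1.25, 1.21 and 1.01, and ribosomal proteins at the bottom with -0.41.

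Genes whose spread fell were fewer and changed less. The 8 with the smallest p were EIF2B1, FAM48A, EPDR1, BTG2, C6H1orf174, RPL13A, RALA and DUSP10, and their SD at day 110 was 0.46 to 0.535 of that at day 90. EIF2B1, a subunit of the exchange factor for translation initiation, was dim and lay between -5.44 and -2.49 at day 90 and between -4.73 and -2.64 at day 110 (SD 0.815 and 0.375, limma adjusted p = 0.000311). RALA, a small GTPase, lay between -0.33 and 1.25 and between -0.13 and 0.93. BTG2, an antiproliferative gene of the immediate early class, lay between 0.79 and 3.46 and between 0.85 and 2.57. The day 110 values of these genes lay mostly inside the earlier range, 31 of 31 fetuses for RALA, 29 for EIF2B1 and 27 for BTG2.

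DUSP10, a phosphatase of MAP kinases, and EPDR1, an ependymin-related protein, were dim, with all values under -0.88. FAM48A, the former name of SUPT20H, had SDs of 0.295 and 0.153, and C6H1orf174 had 0.38 and 0.179. RPL13A, a protein of the large ribosomal subunit, had 0.435 and 0.233, and its call was lost with quantile normalization (adjusted p = 0.532), median centring (0.285) and the authors' values (0.362). FAM48A, C6H1orf174, RALA and BTG2 each lost the call in 1 to 3 settings, and EIF2B1, EPDR1 and DUSP10 kept it. Of the 4 tested probes of EIF2B1, however, 2 had the smaller SD at day 110 and 1 was called. EPDR1 had 2 tested probes, and 1 had the smaller SD at day 110.

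Ribosomal proteins, the building blocks of the ribosome, were at the low end of all lists. Of 30, 4 were called lower in spread, RPS13 and RPL8 among them, and 27 had the smaller pooled SD at day 110, with a median log2 ratio of -0.41. RPS13 lay between 7.09 and 8.59 at day 90 and between 6.96 and 7.93 at day 110. The median was negative in LW, MS and LWMS (-0.81, -0.88 and -1.21) and was 1.17 in MSLW. With quantile normalization, median centring and the authors' values the median was -0.11, -0.09 and -0.13 and the number called 0, so the count depended on how the arrays were scaled.

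A larger spread was not tied to one direction of change in level. Of the 4112 probes of higher spread, 26% were called higher in mean level at day 110 and 29.8% lower, and 1817 (44.2%) had no level call. Over all probes tested 19.2% were called higher in level, 22.7% lower and 58% neither. The 425 probes of lower spread had no level call in 66.6%. SLC11A2, the iron transporter, shows both kinds of change at once. All 31 fetuses lay above the day 90 range of their genotype, at 2.63 to 7.66 after 1.53 to 2.79, and the SD rose from 0.271 to 1.37 (limma adjusted p = 2.43e-07). FUT1, PALMD and MMP25 changed in spread with no level call.

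The first principal component of the deviations from group means held 32.4% of the variance at day 90 and 39.9% at day 110 (39.6% without array 632). With quantile normalization the shares were 34.8 and 35.2%, and with no filter 41.3 and 31.4%, so the gain was lost or reversed. The total variance per probe was 0.207 and 0.307 (0.268 without array 632). At day 110 the leading named genes were TFF2, GIF, GAST and MUC1 on one side. On the other side were MEP1A, the matrix protein SPP1, ADAM8, FTCD, VNN1, APOA4, AMBP, MMP25, ACE, APOC3, FABP2 and AQP10. Fetuses with high levels on one side thus tended to be low on the other within their group. At day 90 the leading genes were others, CCND1, a cyclin, on one side and CUX1, COL1A1 and COL4A1 on the other.

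Within genotypes the calls were fewer and depended on the test. In LW the spread rose for 1160 probes (3.53%) and fell for 47 (0.143%), and the median log2 ratio over all probes was 0.04. The genes with the smallest p were PCK1, EPOR, SLC8B1, CAT and MEP1B. PCK1, by the probe of smallest p, had a 4.59-fold larger SD in LW at day 110 (limma adjusted p = 1.92e-07), against 2.37-fold in MS, 1.91-fold in LWMS and 1.39-fold in MSLW. EPOR, the erythropoietin receptor, rose 4.91-fold, CAT, catalase, 6.9-fold and MEP1B 5.61-fold in LW. SLC8B1 lost its call in LW with deviations from group medians (limma adjusted p = 0.145). The number of probes called in LW in either direction was 1207, and 258 with the slide as a term, 287 with an F test of variances and 26 with deviations from group medians. Without LW fetuses 850, 852 and 575 of day 110 in turn it was 1894, 728 and 747.

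In MS the spread rose for 2963 probes (9.01%) and fell for 1036 (3.15%). FTCD, GNE, SDR16C5, MMP25 and TBC1D4 had the smallest p. Each lost its call in MS with deviations from group medians (limma adjusted p of 0.0655 to 0.0842). SDR16C5 also lost it by an F test of variances (adjusted p = 0.0522). GNE, the first enzyme of sialic acid synthesis, rose 7.85-fold, SDR16C5, a retinol dehydrogenase, 6.97-fold and TBC1D4, a regulator of glucose transporter traffic, 15.8-fold. Array 632 carried much of this. Without it 1253 probes were called higher of 2636 called, and the median log2 ratio over all probes was -0.17 in place of 0.21. FTCD had a log2 ratio of 3.58 in MS without it and GNE one of 2.62, in place of 4.05 and 2.97.

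In LWMS the spread rose for 288 probes (0.876%) and fell for 56 (0.17%), with CA9, PLA2G7 and TTC14 among the genes at the smallest p. CA9 lost its call in LWMS with deviations from group medians (limma adjusted p = 0.582). PLA2G7, a lipoprotein-associated phospholipase, rose 11.7-fold, and its call was lost with the slide as a term (log2 ratio 1.7 in place of 3.55, limma adjusted p = 0.105), squared deviations (0.108) and group medians (0.591). TTC14 had a lower spread at day 110, and ran from -7.18 to 1.91 at day 90 (median 1.21) and from 0.79 to 1.65 at day 110. Its call was lost without either of LWMS fetuses 520 and 954 of day 90 (limma adjusted p = 0.0772 and 0.0744), with squared deviations (0.105) and with group medians (0.739). The number called in LWMS was 344, and it was 141 without fetus 609 and 222 without fetus 411 of day 110.

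In MSLW the spread rose for 128 probes (0.389%) and fell for 5 (0.0152%), although 70.5% of all probes had the larger SD at day 110. UBFD1, AMPD2 and EIF4A2 lost their calls without fetus 688 of day 110 (limma adjusted p of 0.31 to 0.666), and RETSAT, a retinol saturase with a 4.85-fold larger SD, kept its call in that case but lost it with the slide as a term (limma adjusted p = 0.072), array brightness (0.191), group medians (0.229) and an F test of variances (0.106). The absorptive lists had medians of 0.22 for lipid absorption, 0.07 for peptide transport and -0.30 for the brush border in MSLW, under the 0.44 of all genes there. The same lists had medians of 1.59, 1.63 and 1.18 in LW, 2.15, 1.83 and 2 in MS, and 1.01, 0.86 and 0.9 in LWMS, where all genes had 0.03, 0.24 and 0.08. The difference between genotypes was not tested for lists. The 133 probes called in MSLW became 1815 with median centring, 56 without fetus 902 of day 90 and 317 without fetus 560 of day 110.

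The change in spread with age differed between genotypes for 646 probes (1.96%), by the interaction test of the same fit. Over these 646 probes the median log2 ratio was -0.13 in LW, -0.94 in MS, -0.65 in LWMS and 1.17 in MSLW, with 198 called higher and 213 lower in MS. FTCD, MMP25 and SLC5A1 had instead their smallest rise in MSLW. Of the 13 genes of higher spread described, FTCD (adjusted p = 0.0353) and MMP25 (0.0194) passed. FTCD had a 16.6-fold larger SD at day 110 in MS, against 3.29-fold in LW, 3.78-fold in LWMS and 2.46-fold in MSLW. MMP25 had 12.4-fold in LW, 8.72-fold in MS, 5.24-fold in LWMS and 1.18-fold in MSLW. Of the genes named within genotypes, PCK1, EPOR and MEP1B of LW, GNE, SDR16C5 and TBC1D4 of MS, PLA2G7 and TTC14 of LWMS and RETSAT of MSLW passed it, among others. PCK1 and MEP1B passed by the probe of smallest p in LW. By their brightest probes they did not pass the interaction test (adjusted p = 0.0507 and 0.0558). The hexose transporter SLC5A1 also passed (adjusted p = 0.0353), with 5.25-fold in LW, 4.43-fold in MS, 1.12-fold in LWMS and 1.02-fold in MSLW. The count of 646 was 37 with the slide as a term, 4 with squared deviations and 0 with deviations from group medians, and it was 227 to 1490 when 1 fetus was left out.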

How the data were processed

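Jejunum RNA of 63 fetuses was measured on one-colour Agilent arrays. The authors deposited scanner output with spot intensity, read by Agilent Feature Extraction 10.10.1.1 per the labels, and a table of log2 values of 39446 probes. These values correlated with the log2 median intensities of each array (r of 0.9933 to 1) and had array medians of 8.61 to 8.614. They were taken as quantile-normalized, and equality was not shown. From the scanner files, the processed intensity was put on the log2 scale and set against the 75th percentile of its array, leaving out control and outlier spots. No spot was saturated. Array 632 and others in the text are named by the fetus number of the label. Precision of an SD is limited by how many arrays a group has.

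A leverage-corrected absolute deviation of each value from its group mean was fitted with limma 3.58.1 in R 4.3.3 (trend and robust moderation, with the package data.table, version 1.17.8), with the 8 groups in 1 fit. Two-sided p-values were adjusted by Benjamini-Hochberg over 32892 probes at 0.05. The paper collected several fetuses from each litter and fitted the sow as a random effect. The labels name no sow, so litter mates count as independent here. The p-values, those of the permutation tests among them, may therefore be too small. SD ratios pool variances over genotypes. The 95% intervals come from the F distribution and assume normal spread. Probes carry the symbol of the array file, updated by RefSeq tables, and 33512 of 60305 had none. The genes named are the 15 of higher and 8 of lower spread with the smallest p and the same sign in at least 3 genotypes, up to 3 members a list with the largest ratio, and up to 5 genes a genotype with the smallest p. List members called are named as well, after their values were seen. The members and lists were chosen with earlier results of these data known, and the stomach and proximal gut lists were added after these values were seen. Alternatives were other background correction, scaling and filters, the slide or array brightness as a term, other centres and tests, the authors' log2 values and leaving out fetuses. The script was tested on simulated data. Some genes that these rules name are not reported here, 1 of the 15 among them. Sequences are not given here.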

Additional observations from a re-analysis of the deposited data

Results flagged for a closer look

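In 184 groups of 4 to 10 fetuses looked at, 1 fetus lay far from the rest of its group in 8 cases. Chance gives about 1 in 20 groups, so this number is no larger than chance would give. The distance from the group mean was 0.816 for 1 LW fetus at day 90 (next 0.456) and 1.09 for 1 MS fetus at day 110 (next 0.609). CA9 was at -0.74 in 1 LWMS fetus at day 90 (next -0.43) and SLC24A6 at 1.32 in 1 LWMS fetus at day 90 (next 0.74). PGC was at -1.51 in 1 MS fetus at day 90 (next -1.13) and MMP25 at -1.47 in 1 LWMS fetus at day 110 (next 1.19). Among genes of lower spread, BTG2 was at 2.57 in 1 MS fetus at day 110 (next 1.49) and RPL13A at 6.45 in 1 LWMS fetus at day 110 (next 6.16).

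The change in spread with age differed between genotypes by the interaction test of limma for 646 probes, among them FTCD (adjusted p = 0.0353) and MMP25 (adjusted p = 0.0194).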

How the results depend on the processing

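No paired analysis was possible because the fetus numbers of the labels are not shared between groups. Leaving out fetus 632 alone, or fetuses 632 and 484, was chosen after seeing the data. The spread was higher on average for 4112 probes, and for 2023 with median centring, 2549 with the slide as a term, 1331 with group medians as centres and 2151 with squared deviations (3328 to 5088 leaving out 1 fetus). It was lower for 425, and for 59, 850, 29 and 164 in the same settings, 711 with array brightness as a term and 640 without fetus 632 (300 to 804, the highest without MSLW fetus 476 of day 110). The share of higher calls was 90.6%, 75% with the slide and 81.7% with brightness.

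In LW, 1207 probes were called, and 565 with median centring, 258 with the slide, 1832 without fetuses 484 and 469, 26 with group medians, 338 with squared deviations, 287 by an F test of variances and 2507 without fetuses 632 and 484 (728 to 1894 leaving out 1 fetus). In MS, 3999 were called, and 1070 with median centring, 0 with group medians, 337 by the F test and 2636 without fetus 632 (2636 to 5447). In LWMS, 344 were called, and 143 with median centring, 189 with no filter, 47 with the slide, 0 with group medians, 20 with squared deviations, 218 by the F test and 640 without fetuses 632 and 484 (141 to 438). In MSLW, 133 were called, and 60 with normexp, 1815 with median centring, 61 with a filter of all arrays, 62 with the slide, 72 with brightness, 238 without fetuses 484 and 469, 0 with group medians, 46 with squared deviations, 74 by the F test and 277 without fetuses 632 and 484 (56 to 317). The MSLW count moved by over 1.5 times without each of fetuses 560, 578, 688 and 481 of day 110 and 738, 902, 900, 455 and 485 of day 90.

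The interaction gave 646 probes, and 418 with normexp, 275 with quantile normalization, 2151 with median centring, 156 with no filter, 37 with the slide, 1644 without fetuses 484 and 469, 0 with group medians, 974 with no trend or robust moderation, 4 with squared deviations, 1340 without fetus 632 and 2465 without fetuses 632 and 484 (227 without MSLW fetus 900 of day 90 to 1490 without LW fetus 484).

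The median log2 SD ratio was -0.24 in MS with median centring, -0.10 in LWMS with no filter, and in MSLW 0.85 with median centring and 0.0925 with the slide. Leaving out 1 fetus gave -0.05 to 0.33 in LW, -0.17 to 0.38 in MS, -0.02 to 0.13 in LWMS and 0.22 to 0.51 in MSLW. The first component held 25.8% at day 90 with a filter of at least 1 group and 41.3% with no filter (29.9 to 34.4% leaving out 1 fetus). At day 110 it held 35.2% with quantile normalization, 32.5% with that filter, 44.1% with a filter of all arrays and 31.4% with no filter (38.5 to 41.7%). The difference in distance was 0.135 in LW without fetuses 484 and 469 and 0.153 without fetuses 632 and 484, and with no filter -0.0683 in MS, -0.0469 in LWMS and 0.0184 over all genotypes, with 0.0572 over all with the slide. Leaving out 1 fetus gave 0.068 to 0.153 in LW, 0.00319 to 0.165 in MS, 0.0172 to 0.0569 in LWMS, 0.0709 to 0.129 in MSLW and 0.0582 to 0.103 over all. The cause of these shifts was not tested. Probes near background limit the results with no filter.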
